A study of Mus musculus with 8 samples.

Results

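The adipogenic transcription factors examined here are 9 genes, Pparg, Cebpa, Cebpb, Cebpd, Nr1h3, Rxra, Klf15, Ebf1 and Zfp423, followed through every probe set that the platform annotation assigns to exactly 1 of them. They are 9 of the 18194 genes named in this way, and were read by 17 of the 45101 probe sets on the array, and no probe set shared between a member and another gene was present. Subcutaneous fat came from 4 mice given niacin-bound chromium (NBC, trivalent chromium complexed with nicotinic acid) by oral gavage at 10 mg per kg body weight in water, and from 4 placebo mice given water alone. The NBC mice carried the numbers 5, 9, 11 and 13 and the placebo mice 6, 8, 10 and 14. All were diabetic males, labelled as 8 weeks old, that received their gavage on 5 days per week for 10 weeks. That label cannot be their age at the end of the gavage. No source used here gives the strain or allele behind the diabetes, or how it limits the mice as a model. Total RNA of each mouse was hybridised to 1 Affymetrix array covering the mouse genome, and each value is a MAS5 signal, a linear brightness per probe set that the authors scaled per array.

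Fat cells arise from mesenchymal precursors through a relay of transcription factors. C/EBPbeta and C/EBPdelta, encoded by Cebpb and Cebpd, come on early after hormonal stimulation and help to switch on Cebpa and Pparg. The products of these last genes maintain each other and drive most genes of the mature adipocyte. PPARgamma binds DNA together with the retinoid X receptor RXRalpha (Rxra), which is also the partner of the liver X receptor LXRalpha (Nr1h3), a sensor of oxidised cholesterol. Klf15, a zinc finger factor of the Krüppel-like family, is induced by glucocorticoids and fasting and acts on amino acid and glucose metabolism. Ebf1 and Zfp423 act at the level of the preadipocyte, Zfp423 as a mark of commitment to the white fat lineage.

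Start regions of 4 members are shown, with matches to short regulatory motifs marked where there were any. RefSeq windows (GRCm38.p6), 250 bases before to 50 bases after an annotated start, were at hand for 8 of the 9 members, and not for Cebpd. Mouse Pparg is known to be transcribed from separate promoters, of which the one for the fat-selective form PPARgamma2 lies downstream. Its windows farthest upstream (80.3% G or C) and farthest downstream (40.3% G or C) are both given, since 1 probe set reports this gene. Capitals mark matches on either strand to the E-box CACGTG, the C/EBP core site TTGCGNNA, the cAMP-response core site TGACG, the nuclear receptor core site AGGTCA and the TATA box TATAAA. All windows are from the plus strand, 5′ to 3′.
Pparg, upstream start, chr6:115360894-115361193: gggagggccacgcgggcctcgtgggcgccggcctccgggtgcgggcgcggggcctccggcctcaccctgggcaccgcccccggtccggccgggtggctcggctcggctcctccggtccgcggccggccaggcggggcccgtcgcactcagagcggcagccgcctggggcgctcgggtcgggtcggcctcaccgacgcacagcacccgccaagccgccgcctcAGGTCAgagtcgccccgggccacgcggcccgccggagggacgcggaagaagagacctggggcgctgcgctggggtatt
Pparg, downstream start, chr6:115421816-115422115: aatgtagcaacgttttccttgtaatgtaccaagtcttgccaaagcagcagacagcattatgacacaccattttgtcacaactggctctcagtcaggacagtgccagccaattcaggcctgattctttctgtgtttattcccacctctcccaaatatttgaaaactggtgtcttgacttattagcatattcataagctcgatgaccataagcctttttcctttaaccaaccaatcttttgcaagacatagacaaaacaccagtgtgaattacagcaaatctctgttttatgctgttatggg
Cebpa, chr7:35119043-35119342: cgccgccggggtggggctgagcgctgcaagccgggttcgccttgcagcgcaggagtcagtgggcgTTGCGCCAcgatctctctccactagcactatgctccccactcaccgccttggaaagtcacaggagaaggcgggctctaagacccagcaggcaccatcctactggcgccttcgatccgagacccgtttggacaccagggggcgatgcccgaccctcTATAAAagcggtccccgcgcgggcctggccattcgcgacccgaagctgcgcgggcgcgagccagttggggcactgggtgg
Cebpb, chr2:167688665-167688964: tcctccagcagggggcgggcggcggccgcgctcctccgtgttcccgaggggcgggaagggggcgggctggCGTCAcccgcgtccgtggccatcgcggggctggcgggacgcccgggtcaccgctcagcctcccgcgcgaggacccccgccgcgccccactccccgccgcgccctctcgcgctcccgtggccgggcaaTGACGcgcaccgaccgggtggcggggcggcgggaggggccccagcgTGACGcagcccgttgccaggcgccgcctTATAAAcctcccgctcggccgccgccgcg
Klf15, chr6:90462326-90462625: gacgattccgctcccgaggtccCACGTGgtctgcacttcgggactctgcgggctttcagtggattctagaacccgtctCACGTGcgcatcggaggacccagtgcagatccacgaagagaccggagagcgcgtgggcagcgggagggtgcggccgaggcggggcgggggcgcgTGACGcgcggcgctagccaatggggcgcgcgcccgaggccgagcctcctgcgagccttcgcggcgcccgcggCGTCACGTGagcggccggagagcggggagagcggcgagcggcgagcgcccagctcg

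The Cebpa window held 1 C/EBP core site, beginning 185 bases before the start, and a TATA box beginning 30 bases before it. The C/EBP core site occurred in 3.51% of the 32851 RefSeq windows of this length. The Cebpb window held 3 cAMP-response core sites, where 20.8% of all windows held at least 1 and 1.03% held 3 or more. Its match to the TATA box letters begins 22 bases after the annotated start, not before it. The Klf15 window held 3 E-boxes, where 7.15% of windows held at least 1 and 0.0883% held 3 or more. It also held 2 cAMP-response core sites, the second of which overlapped the E-box at the start. The nuclear receptor core site, present in 16.3% of windows, stood once in the upstream Pparg window, and the TATA box was found in 13.6% of windows. A Pparg window lying between those shown held 1 nuclear receptor core site and 1 TATA box. The Cebpb window was 80.7% G or C and the Klf15 window 73.3%, against a median of 52.7% over all windows. The shares were not matched for G and C content. All these matches describe letters only. In the downstream Pparg window none of the 5 motifs was found.

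Of the 17 probe sets, 14 passed the filter on dim signals, which kept the brighter 50% of the array (22519 probe sets, mean signal at or above 275). At least 1 probe set passed for each of the 9 genes. The 3 below the filter were the dimmer Cebpd probe set (1456605_at, 28.7 to 281 over the 8 mice), the dimmest of Rxra (1430497_at, 23.5 to 272) and the dimmest of Ebf1 (1457441_at, 60.0 to 295). They gave no separate call in a fit without the filter (smallest adjusted p = 0.950).

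Between NBC and placebo mice no adipogenic factor changed beyond the spread between mice. When p-values from limma were adjusted over all 22519 probe sets by the Benjamini-Hochberg method, 0 of the 14 member probe sets passed, as did 0 (0%) of all probe sets tested. The members' adjusted p lay between 0.784 and 0.964. At an unadjusted p under 0.05 there were 0 of 14, against 6.22% of all probe sets. Groups without overlap were found in 0 of 14, against 3.85% of all. The log2 difference (NBC minus placebo) was below 0 in 10 of the 14 and above 0 in 4, while 52% of all probe sets lay below 0. The median of the 14 was -0.13, beside -0.01 for all probe sets. The differences ran from -0.29 (Klf15) to 0.12 (Cebpb), with standard errors of 0.12 to 0.26. Taken over the members, the 95% intervals reached from 0.572 times (Klf15) to 1.597 times (Ebf1) the placebo level. In whole tissue, fewer cells of a type and less RNA per cell cannot be told apart.

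**Figure D1:**
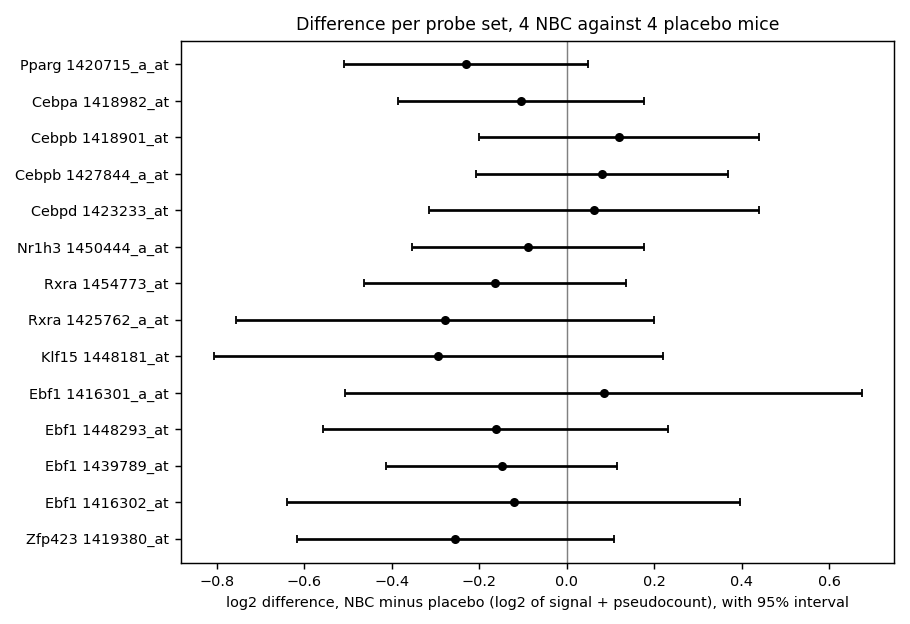
Log2 difference in signal, NBC minus placebo, for the 14 member probe sets above the filter (horizontal axis, log2 units), with 95% intervals from limma. Every interval spans 0, and the points lie between -0.29 and 0.12.

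The tissue read as fat. Adipoq, which encodes the adipocyte hormone adiponectin, averaged 95192 ± 8521 in NBC and 98493 ± 10389 in placebo mice (SD, n = 4 each). Leptin, Lep, averaged 85039 ± 8339 in NBC and 87898 ± 7052 in placebo mice (SD, n = 4 each). The mean log2 level over the 11 measured adipocyte markers of 14 listed was 15.02 to 15.24 in NBC and 15.15 to 15.32 in placebo mice, with 10 of the 11 lower in NBC. All 14 skeletal muscle markers were higher in NBC, at a mean log2 level of 12.85 to 12.99 in NBC mice 5, 11 and 13. NBC mouse 9 had 9.77, inside the 8.27 to 10.26 of the placebo mice. All 11 measured stromal and preadipocyte markers were higher in NBC, and their mean did not overlap, with 13.13 to 13.27 in NBC and 12.69 to 12.91 in placebo mice. All 11 macrophage markers were higher in NBC (12.51 to 13.52 in NBC against 12.27 to 12.89 in placebo mice). All 8 measured lymphocyte markers were lower, with NBC mice 11 and 13 at 7.79 and 7.62, NBC mice 5 and 9 at 10.62 and 10.23 and placebo mice at 9.54 to 10.46. The means of the 10 endothelial markers were 11.33 to 11.96 in NBC and 11.41 to 11.93 in placebo mice, and 7 of the 9 epithelial markers lay below the filter. Summed signals were 617813 to 702624 in NBC and 634469 to 752616 in placebo mice for the adipocyte list, and 18907 to 172705 in NBC and 6411 to 25410 in placebo mice for the muscle list. For the stromal list they were 207957 to 235327 in NBC and 176346 to 193986 in placebo mice. Over all 11662 genes, 51.5% lay below 0, and the marker lists were chosen with earlier results of these data known. The part of these cell types in the members' values was not tested beyond a fit with the muscle level as a covariate, given at the end.

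**Figure D2:**
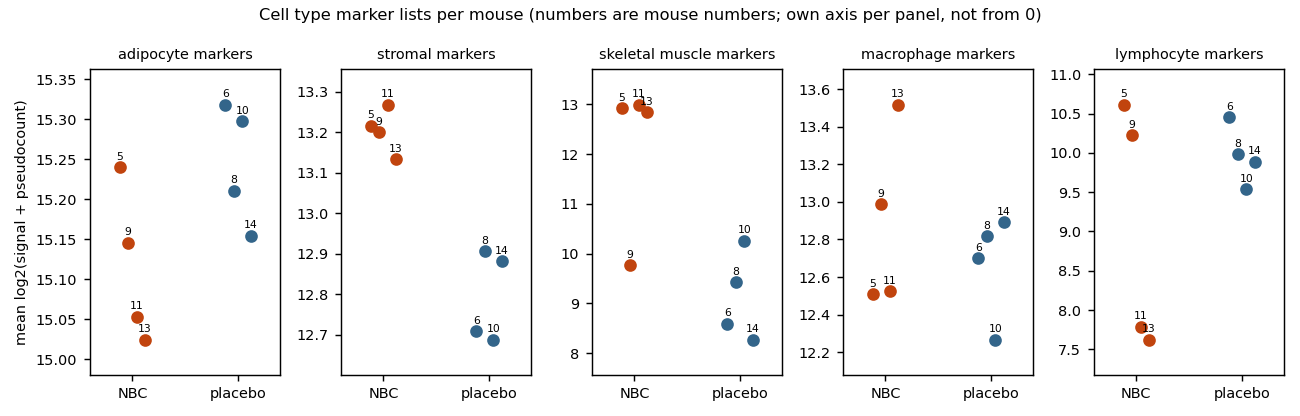
Mean log2(signal + pseudocount) of 5 lists of cell type markers in each mouse (vertical axes, log2 units, 1 scale per panel). Points are mice with their numbers. Muscle markers stand high in NBC mice 5, 11 and 13, and the stromal list separates the groups.

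Pparg, the receptor gene at the centre of adipocyte differentiation, had the smallest p of the members. Its single probe set, 1420715_a_at, read 13699, 15163, 13472 and 15328 in NBC mice 5, 9, 11 and 13. In placebo mice 6, 8, 10 and 14 it read 14937, 17526, 15931 and 19454. All 4 NBC mice lay below the placebo median, but placebo mouse 6 lay within the NBC range, so the groups overlapped. The means were 14416 ± 965 in NBC and 16962 ± 1974 in placebo mice (SD, n = 4 each), a ratio of 0.850. The log2 difference was -0.23 (SE 0.12, unadjusted p = 0.0956, limma adjusted p = 0.784). Its 95% interval ran from 0.703 to 1.03 times the placebo level. By p the probe set ranked 2742 of 22519.

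Rxra, the DNA-binding partner of PPARgamma, was read by 2 probe sets above the filter. The brighter, 1454773_at, gave 4211, 4510, 4581 and 3512 in NBC mice 5, 9, 11 and 13, against 4530, 4202, 5320 and 4760 in placebo mice 6, 8, 10 and 14. The 4 NBC values lay below the placebo median with overlap, and the log2 difference was -0.16 (SE 0.13, limma adjusted p = 0.846). The dimmer, 1425762_a_at, gave 664, 851, 633 and 1248 in NBC mice, against 936, 894, 1030 and 1153 in placebo mice, in the same order. Here 3 NBC mice lay below every placebo mouse and NBC mouse 13 above all of them, for a log2 difference of -0.28 (SE 0.21, limma adjusted p = 0.838). Without NBC mouse 13 this became -0.48 with no overlap (limma unadjusted p = 0.0147, adjusted p = 0.739). That lack of overlap was certain once the only NBC mouse not below the placebo mice was left out. Neither it nor this p is therefore evidence of a change. Without NBC mouse 11 the difference was -0.16 and without NBC mouse 5 -0.18. The difference of 1454773_at was -0.08 without NBC mouse 13 and -0.10 without placebo mouse 10. Across the 8 mice these probe sets of 1 gene did not follow each other (Pearson r = -0.15, Spearman rho = 0.00, exact permutation p = 0.745 and 1).

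Nr1h3, the gene of LXRalpha, had a single probe set, 1450444_a_at. It read 2742, 2414, 2238 and 2347 in NBC mice 5, 9, 11 and 13, and 2530, 2906, 2475 and 2443 in placebo mice 6, 8, 10 and 14. NBC mice 9, 11 and 13 lay below all placebo mice, while NBC mouse 5 ranked second of the 8. The log2 difference of -0.09 (SE 0.12, limma adjusted p = 0.903) was within the spread between mice, with a 95% interval of 0.783 to 1.13 times. It was -0.03 without placebo mouse 8, -0.05 without NBC mouse 11 and -0.15 without NBC mouse 5.

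The C/EBP genes did not lie on 1 side of 0. Cebpa, whose product holds the differentiated state, read 39756, 34224, 42443 and 32828 in NBC mice 5, 9, 11 and 13 on 1418982_at, against 39762, 40066, 42970 and 37016 in placebo mice 6, 8, 10 and 14. NBC mice 9 and 13 lay below every placebo mouse and the other NBC mice within the placebo range. The log2 difference was -0.10 (SE 0.12, limma adjusted p = 0.895), and it lay between -0.17 (without NBC mouse 11) and -0.05 (without NBC mouse 13) with 1 mouse left out. The coefficient of variation (SD over mean) was 12.2% in NBC and 6.09% in placebo mice.

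Cebpb, the early-acting relative, was read by 1418901_at at 18658, 13981, 17131 and 13544 in NBC mice 5, 9, 11 and 13, and at 12818, 15421, 14183 and 15474 in placebo mice 6, 8, 10 and 14. NBC mice 5 and 11 exceeded all placebo mice and the other NBC mice did not. The log2 difference was 0.12 (SE 0.14, limma adjusted p = 0.894). It was 0.04 without NBC mouse 5 and 0.19 without NBC mouse 13. Its dimmer probe set, 1427844_a_at, gave 3920, 3332, 3186 and 3606 in NBC and 2916, 3107, 3577 and 3685 in placebo mice, a log2 difference of 0.08 (SE 0.13, limma adjusted p = 0.915). In this second probe set NBC mouse 5 alone exceeded the placebo mice, and the difference ran from 0.02 (without placebo mouse 6) to 0.13 (without placebo mouse 14).

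Cebpd, which acts beside Cebpb at the start of differentiation and answers to inflammatory cytokines, read 5933, 5111, 6872 and 4634 in NBC mice 5, 9, 11 and 13 on 1423233_at. In placebo mice 6, 8, 10 and 14 it read 4510, 5649, 6474 and 4925. The groups overlapped over nearly their whole range, with means of 5637 ± 982 in NBC and 5390 ± 862 in placebo mice (SD, n = 4 each). The log2 difference was 0.06 (SE 0.17, limma adjusted p = 0.962), and it turned to -0.04 without NBC mouse 11 and to -0.02 without placebo mouse 6.

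**Figure D3:**
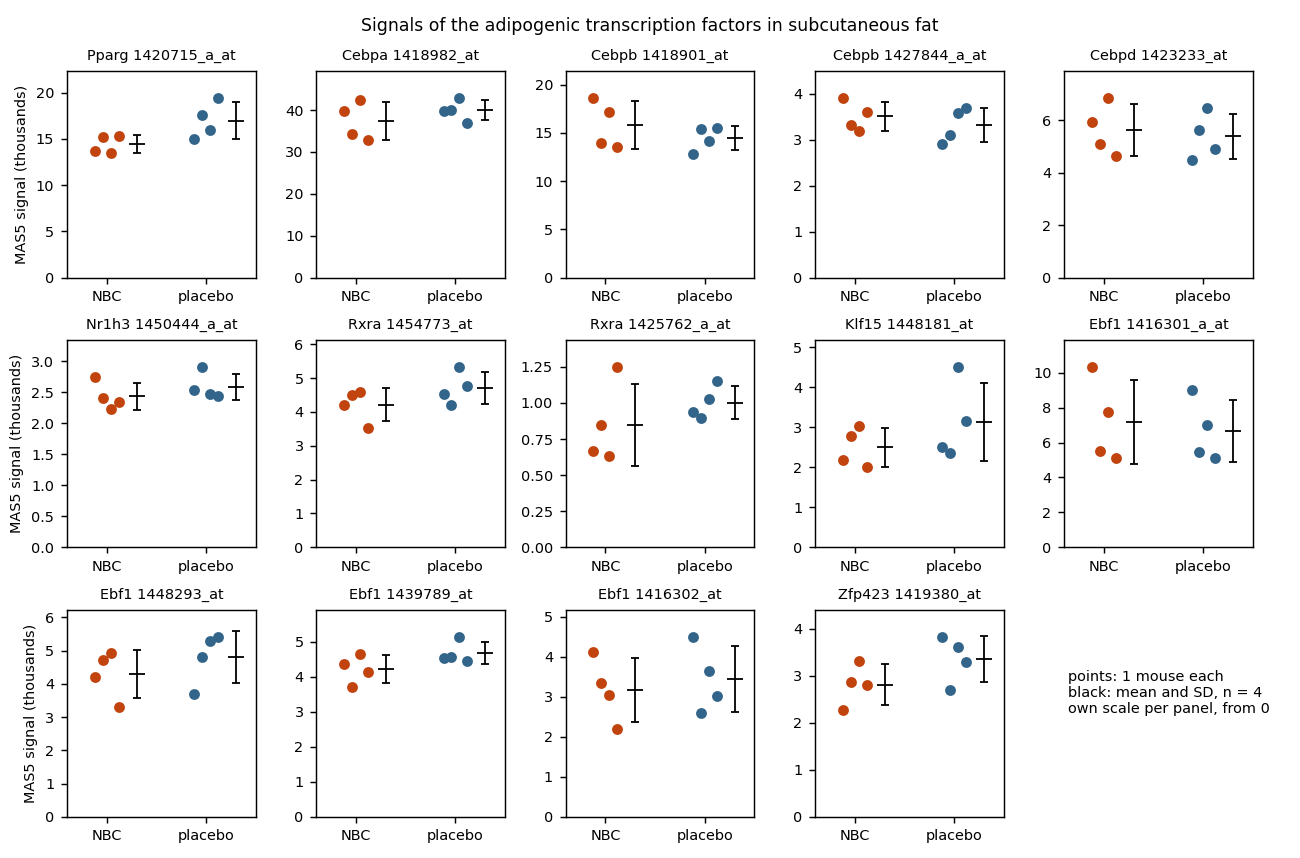
MAS5 signal (vertical axes, scaled as labelled, from 0) of the 14 member probe sets in each mouse, NBC left and placebo right, with the mean and SD of 4 mice beside the points. The groups overlap in every panel. Klf15 in placebo and the Ebf1 probe sets 1416301_a_at and 1416302_at in both groups scatter widely.

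Klf15 had the difference farthest from 0 and among the widest scatter. Probe set 1448181_at read 2191, 2771, 3039 and 1997 in NBC mice 5, 9, 11 and 13, and 2503, 2354, 4499 and 3159 in placebo mice 6, 8, 10 and 14. Placebo mouse 10 stood well above all others. The means were 2500 ± 487 in NBC and 3129 ± 978 in placebo mice (SD, n = 4 each), with a log2 difference of -0.29 (SE 0.23, limma adjusted p = 0.841). Without placebo mouse 10 the difference was -0.10, without NBC mouse 13 it was -0.19 and without placebo mouse 8 it was -0.41.

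Ebf1, a helix-loop-helix factor of the early B cell factor family that is also expressed in B lymphocytes, had 4 probe sets above the filter, and they disagreed. The brightest, 1416301_a_at, read 10325, 5504, 7742 and 5100 in NBC mice 5, 9, 11 and 13, and 8999, 5447, 7028 and 5143 in placebo mice 6, 8, 10 and 14. Its log2 difference was 0.08 (SE 0.26, limma adjusted p = 0.964), and each group spanned nearly the same range. It turned to -0.11 without NBC mouse 5 and to -0.03 without placebo mouse 14. The other 3 lay below 0, 1448293_at at -0.16 (SE 0.17), 1439789_at at -0.15 (SE 0.12) and 1416302_at at -0.12 (SE 0.23), with adjusted p from 0.842 to 0.935. On 1439789_at the NBC mice read 4366, 3716, 4645 and 4137, against 4525, 4552, 5139 and 4456 in placebo mice. NBC mouse 11 alone lay inside the placebo range there. With 1 mouse left out, 1448293_at ran from -0.28 to -0.04, 1439789_at from -0.20 to -0.09 and 1416302_at from -0.26 to 0.04, the last being above 0 without NBC mouse 13 or placebo mouse 6. Probe sets 1448293_at and 1416302_at ran from 3316 to 4917 and from 2185 to 4131 in NBC mice, against 3686 to 5422 and 2588 to 4501 in placebo mice. The annotation lists the same source sequence for 1416301_a_at, 1416302_at and 1448293_at. The first pair varied together over the mice (r = 0.80, rho = 0.88, exact permutation p = 0.0179 and 0.00724, adjusted over 91 pairs 0.446 and 0.220), and r was 0.54 without the 2 mice farthest from the median of 1416301_a_at. Probe set 1448293_at had r = -0.17 with 1416301_a_at and r = 0.09 with 1416302_at. The ratio of 3' to 5' signal of the Gapdh control, a sign of RNA integrity, was 1.47, 0.844, 1.28 and 1.11 in NBC mice 5, 9, 11 and 13, and 0.924 to 1.04 in placebo mice. For the Actb control it was 2.10, 1.51, 1.82 and 1.56 in NBC mice, in the same order, and 1.51 to 1.74 in placebo mice. The part of RNA integrity in the values of these or the other members was not tested.

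Zfp423, the preadipocyte commitment factor, was read by 1419380_at at 2260, 2869, 3313 and 2799 in NBC mice 5, 9, 11 and 13. In placebo mice 6, 8, 10 and 14 it read 3827, 2691, 3608 and 3296. All 4 NBC mice lay below the placebo median, with overlap, since placebo mice 8 and 14 lay below NBC mouse 11. The means were 2810 ± 432 in NBC and 3356 ± 494 in placebo mice (SD, n = 4 each), for a difference of -0.25 on the log2 scale (SE 0.16, limma adjusted p = 0.812), which ran from -0.36 to -0.16 with 1 mouse left out (-0.16 without NBC mouse 5). It lay lower while the mean of the stromal and preadipocyte markers was higher in all NBC mice. That list was chosen with earlier results of these data known. Those 11 markers ran from 0.06 to 1.604 on the log2 scale with a median of 0.31. At an unadjusted p under 0.05 in limma's test 3 were higher, against 2.73% of all genes. The 3 were Pi16 (1.604, SE 0.33), Pdgfrb (0.57, SE 0.13) and the collagen gene Col1a1 (0.36, SE 0.14). Pdgfra, a receptor gene of adipocyte precursors, had the lowest value of the 11, 0.06 (SE 0.20), and its dimmer probe sets gave -0.35 (SE 0.22) and -0.31 (SE 0.23).

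Over the 8 mice the 14 member probe sets formed 91 pairs, with a median Pearson r of 0.16 and a range of -0.70 to 0.91. Of these, 60 were above 0. The closest pair joined different genes, Rxra (1454773_at) and Klf15, with r = 0.91 and Spearman rho = 0.95 (exact permutation p = 0.0025 and 0.00114, and 0.228 and 0.0519 after Benjamini-Hochberg adjustment over the 91 pairs). The permutations ran over all 8 mice regardless of group, so their p also takes in any difference between the groups. Within the groups, after removal of the group means, r was 0.89. Without the 2 mice farthest from the median of Rxra it was 0.91. NBC mouse 13 was lowest and placebo mouse 10 highest for both genes. Cebpa and the Ebf1 probe set 1439789_at followed with r = 0.84 and rho = 0.95 (exact permutation p = 0.00541 and 0.00114, adjusted 0.246 and 0.0519), with r = 0.82 within groups and 0.73 without the 2 mice farthest in Cebpa. Cebpa and Cebpd had r = 0.73 and rho = 0.67 (exact permutation p = 0.0436 and 0.0831, adjusted 0.589 and 0.630). Pparg and Cebpa had r = -0.19 and rho = -0.12 (exact permutation p = 0.667 and 0.793). Their r was -0.71 within groups, for which no p was computed, and -0.32 without the 2 mice farthest in Pparg. Other pairs lay farther below 0 within groups, among them Nr1h3 and Zfp423 (r = -0.905). Over all mice that pair had r = -0.48 and rho = -0.29 (exact permutation p = 0.232 and 0.501). Its r turned to 0.50 without the 2 mice farthest in Nr1h3. The pairs were picked out after their values were seen, and 0 of the 91 passed the adjusted threshold, with 6 at an unadjusted Pearson p under 0.05. All arrays share the scaling, which the points in a pair have in common.

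**Figure D4:**
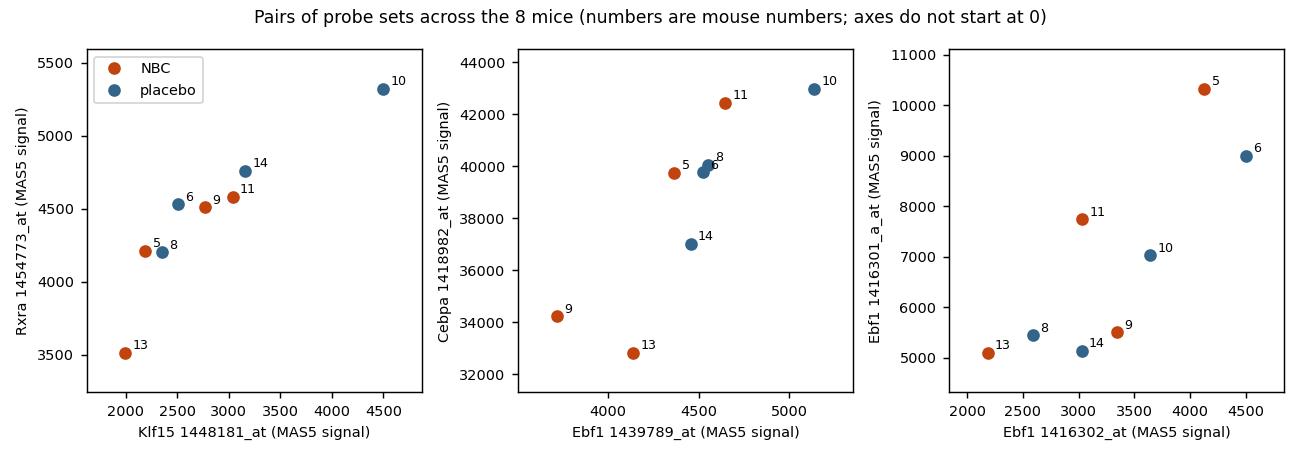
MAS5 signals of 3 pairs of probe sets across the 8 mice, Rxra (vertical) against Klf15 (horizontal), Cebpa against Ebf1 (1439789_at), and 2 Ebf1 probe sets against each other. Numbers are mouse numbers. NBC mouse 13 and placebo mouse 10 mark the ends of the first pair.

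For each member the 3 genes with the most similar profile over the 8 arrays were listed by Pearson r among the 11662 genes represented. With so many candidates on 8 arrays, r over 0.9 says little and is given with no p. Pparg was matched by Ankrd49 (r = 0.97), Pde6d (0.97) and Hirip3 (0.96), which differed by -0.38 (SE 0.16), -0.36 (SE 0.15) and -0.42 (SE 0.16) on the log2 scale. Hirip3 had no overlap between the groups. Cebpa was matched by Aldh6a1, an enzyme of valine breakdown (r = 0.98), Trip6 (0.97) and the biotinidase gene Btd (0.97). Cebpb followed Fcf1 (0.99), Csnk2a2 (0.96) and Rpia (0.95), and Cebpd followed Cib1 (0.98), Trpt1 (0.97) and Tagln (0.97). Nr1h3 was nearest to Ndufa4 (0.95), Bphl (0.94) and Zfp647 (0.91). Rxra was nearest to Rabepk (0.99), Ywhaq (0.99) and Mcam (0.97), and Klf15 to Adamtsl4 (0.97), Rhbdl3 (0.96) and U2af2 (0.96). Zfp423 was nearest to the small heat shock protein gene Hspb6 (0.98), Hip1 (0.94) and Pdhb (0.94). The 3 matches of the brightest Ebf1 probe set, Rap2c, Usp39 and Timm17b (0.96, 0.95 and 0.95), were all read by probe sets with the suffix _x_at, which Affymetrix gives to designs with a risk of cross-hybridisation.

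The genes around the factors were followed in 9 lists, with the brightest probe set standing for each gene. None of their measured genes passed the adjusted threshold in limma's test. Over all 11662 genes 2.71% were lower and 2.73% higher in NBC at an unadjusted p under 0.05, 51.5% lay below 0 and the median log2 difference was -0.01. Among the relatives of the factors, which included the other RXR, PPAR, EBF and KLF genes, 9 of 17 lay below 0 and 0 had an unadjusted p under 0.05 (median -0.02). The retinoid X receptor gene of muscle and brain, Rxrg, differed by -0.23 (SE 0.16), Klf4 by 0.13 (SE 0.11), Klf7 by 0.17 (SE 0.18) and Klf6 by -0.09 (SE 0.11). A dimmer Klf4 probe set gave 0.38 (SE 0.25). The other probe sets of Klf7 lay between -0.30 and 0.05, and those of Klf6 between -0.40 and 0.05.

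Genes regulated by PPARgamma in adipocytes lay mostly lower. Of 28 measured, 23 were below 0, 5 had an unadjusted p under 0.05 with a lower level in NBC and 0 with a higher one, and the median was -0.11. The 4 with the smallest p were the lipid droplet gene Cidea (-0.995, SE 0.18), the glyceroneogenic enzyme gene Pck1 (-0.80, SE 0.22), the uncoupling protein gene Ucp1 (-1.38, SE 0.40) and the kinase gene Pdk4 (-0.62, SE 0.25). A dimmer Pck1 probe set gave -1.04 (SE 0.41). Pck1 averaged 9596 ± 2015 in NBC and 16861 ± 4337 in placebo mice (SD, n = 4 each), and Pdk4 5806 ± 908 in NBC and 9310 ± 3063 in placebo mice (SD, n = 4 each), both with overlap. Their adjusted p were 0.716 and 0.778 in limma's test. The fatty acid carrier Fabp4 differed by -0.01 (SE 0.13). Of these 28 genes, 8 also belong to the adipocyte marker list. Cidea and Ucp1 were known to lie lower in these samples when the list was drawn up, so the list's direction is not independent of them. With values centred on the adipocyte markers its median was 0.02, where the median of all genes was 0.12.

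LXR targets had a median of 0.04, with 7 of 12 above 0 and 0 at an unadjusted p under 0.05. The phospholipid acyltransferase Lpcat3 differed by -0.20 (SE 0.12), the sterol exporter Abcg1 by 0.23 (SE 0.26), the lipogenic regulator Srebf1 by 0.09 (SE 0.11) and Mylip by -0.09 (SE 0.13). A second Abcg1 probe set gave -0.04 (SE 0.25). Among 11 metabolic genes linked to Klf15, 8 lay below 0 with a median of -0.05. The branched-chain aminotransferase gene Bcat2 had the smallest p, at 2354 ± 252 in NBC and 2908 ± 306 in placebo mice (SD, n = 4 each), and the groups did not overlap (difference -0.30 on the log2 scale, SE 0.13, limma unadjusted p = 0.0428, adjusted p = 0.778). Bckdhb of the same pathway differed by -0.27 (SE 0.15), the glucose transporter Slc2a4 by -0.28 (SE 0.18) and the proline oxidase Prodh by -0.29 (SE 0.28). A second Slc2a4 probe set gave -0.67 (SE 0.27).

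Coregulators of PPARgamma and C/EBP were split, with 10 of 19 below 0 and a median of -0.03. The lower ones at an unadjusted p under 0.05 numbered 3, and the higher ones 0. The nuclear receptor corepressor Nrip1 averaged 9804 ± 575 in NBC and 12920 ± 1446 in placebo mice (SD, n = 4 each), and its groups were separate (difference -0.39 on the log2 scale, SE 0.12, limma adjusted p = 0.730). Of its 4 other probe sets 3 also lay below 0 (-0.77, SE 0.41, -0.21, SE 0.25, and -0.01, SE 0.23) and 1454295_at above it (0.37, SE 0.16). Cited2, a partner of the p300 acetyltransferases, averaged 5320 ± 851 in NBC and 7057 ± 304 in placebo mice (SD, n = 4 each), likewise separate (difference -0.42, SE 0.13, limma adjusted p = 0.730). A dimmer Cited2 probe set gave -0.23 (SE 0.14). The deacetylase Sirt1 (-0.42, SE 0.16) and the coactivator Ppargc1a (-0.35, SE 0.18) overlapped.

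Genes that act early in adipogenesis, not all of them as inducers, were 9 above and 9 below 0 of 18. Their median was 0.02, with 0 at an unadjusted p under 0.05. Nfia, a nuclear factor I gene, differed by 0.35 (SE 0.18) and on its other probe sets by 0.71 (SE 0.17), 0.13 (SE 0.34) and 0.01 (SE 0.25). The first of these, 1421163_a_at, had no overlap between the groups (limma unadjusted p = 0.00201, adjusted p = 0.651). Fosl2, a member of the AP-1 family, differed by 0.27 (SE 0.15) and by -1.03 (SE 0.70) on a dim second probe set, where all NBC mice lay below the placebo mice. Ccn5 differed by 0.23 (SE 0.19). Repressors of adipogenesis lay above 0 in 11 of 17, with a median of 0.05, 1 higher and 0 lower at an unadjusted p under 0.05. That 1 was the interferon regulatory factor Irf4 (0.52, SE 0.21, with overlap). The glucocorticoid-induced leucine zipper gene Tsc22d3 differed by -0.30 (SE 0.14), the orphan receptor Nr2f2 by -0.30 (SE 0.14) and the Notch target Hes1 by 0.32 (SE 0.17). A second Tsc22d3 probe set, 1425281_a_at, gave -0.67 (SE 0.20) with no overlap (limma adjusted p = 0.730), and another -0.05 (SE 0.41). The other probe sets of Nr2f2 gave 0.16 (SE 0.16), 0.06 (SE 0.30) and 0.02 (SE 0.23).

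The hormonal and inflammatory signals to which Cebpb, Cebpd and Klf15 respond were followed through 2 more lists. Glucocorticoid-responsive genes were 8 above and 8 below 0 of 16, with a median of 0.01, and Pdk4 was the 1 with an unadjusted p under 0.05. Per1 differed by 0.27 (SE 0.12) and Fkbp5, the cochaperone of the glucocorticoid receptor, by -0.36 (SE 0.20), with -0.91 (SE 0.41) on a dimmer probe set. Acute-phase and cytokine-responsive genes lay above 0 in 14 of 16, with a median of 0.07, and 2 were higher and 0 lower at an unadjusted p under 0.05. These were Saa3 (1.21, SE 0.32) and Socs3 (0.77, SE 0.21), both without overlap between the groups. The other Socs3 probe sets gave 1.23 (SE 0.51) and 0.55 (SE 0.21). The cytokine gene Il1b differed by 0.56 (SE 0.27) and the prostaglandin synthase Ptges by -0.27 (SE 0.16), with 0.07 (SE 0.19) and -0.18 (SE 0.27) on its other probe sets.

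The list medians moved with single mice. With 1 mouse left out, the median of the PPARgamma targets ran from -0.16 to -0.09. That of the acute-phase genes was 0.02 without placebo mouse 14 and 0.16 without placebo mouse 10. The Klf15-linked median was -0.17 without NBC mouse 5 or 11 and -0.01 without NBC mouse 13. For LXR targets it ran from 0.00 (without NBC mouse 9) to 0.05. The median of the genes that act early in adipogenesis ran from 0.02 to 0.07 (without NBC mouse 9). For the repressors it ran from 0.02 (without NBC mouse 13) to 0.08 (without NBC mouse 5). The other 3 medians had no settled sign. The coregulators ran from -0.06 (without placebo mouse 14) to 0.02 (without placebo mouse 10), and were also above 0 without NBC mouse 9. The relatives ran from -0.05 (without placebo mouse 14) to 0.02 (without placebo mouse 10), and were also above 0 without NBC mouse 5 or 9. The glucocorticoid-responsive genes ran from -0.08 (without NBC mouse 11) to 0.04 (without placebo mouse 8), and were also below 0 without NBC mouse 9 or 13 or placebo mouse 10 or 14. With the mean of a gene's kept probe sets in place of the brightest, the Klf15-linked median was -0.14 and that of the repressors -0.01. With arrays centred on adipocyte markers all 9 medians lay above 0 (0.02 to 0.20), where the median of all genes was 0.12.

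**Figure D5:**
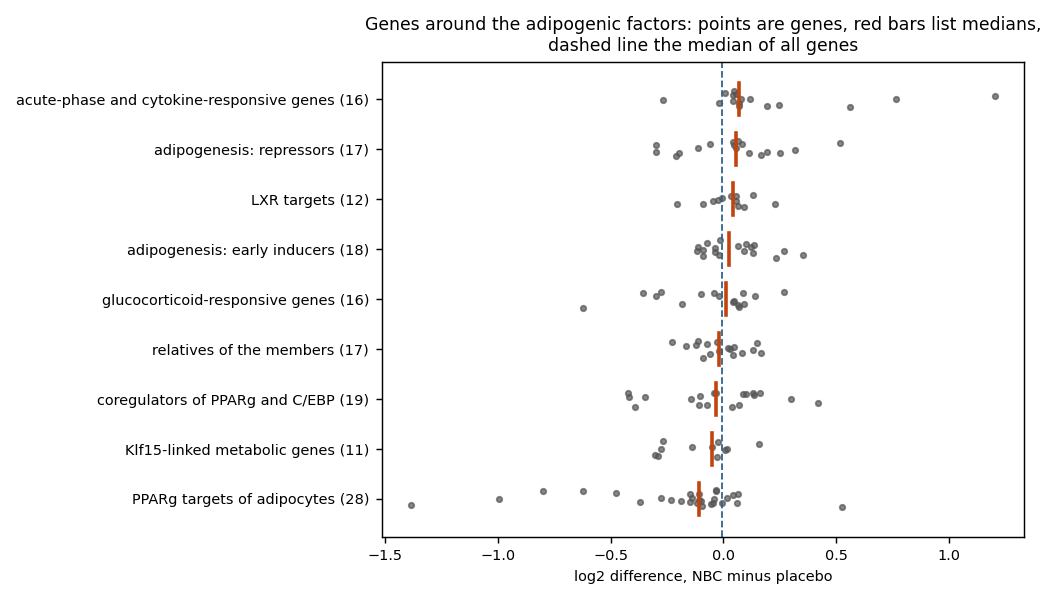
Log2 differences, NBC minus placebo (horizontal axis), of the measured genes in 9 lists around the adipogenic factors, with the number of genes in brackets. Points are genes, red bars the list medians and the dashed line the median of all 11662 genes. List medians lie between -0.11 (PPARgamma targets) and 0.07 (acute-phase genes).

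Other settings moved directions, and the adjusted threshold was passed by no member under any of them. With each array centred on its adipocyte markers, 7 of the 14 member probe sets lay below 0 in place of 10, and the median of all genes moved to 0.12, a shift that every member shared. With the mean muscle marker level as a covariate, all 14 lay below 0, among them Cebpb (-0.05 and -0.00), Cebpd (-0.24) and the brightest Ebf1 probe set (-0.26). Farthest from 0 was Ebf1 1439789_at, which moved from -0.15 to -0.39 (limma unadjusted p = 0.0538), and Cebpa moved from -0.10 to -0.29. Ebf1 1416302_at was at -0.0020, and Pparg moved from -0.23 to -0.10 (limma unadjusted p = 0.628). In that limma fit 0 of 14 had an unadjusted p under 0.05. Only NBC mouse 9, at 9.77, lay inside the placebo muscle range of 8.27 to 10.26. The covariate thus ran largely with the group, and the fit cannot tell them well apart.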

How the data were processed

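Total RNA of subcutaneous fat from 4 NBC and 4 placebo mice was measured on 1 array each. The authors' deposited values are intensity values from MAS5, per the submitters' processing notes, one signal per probe set. The trimmed mean signal was 1500.01 on every array, so values are relative to the array. No scan date or batch is given in the sources used here, and nothing says how the mice relate beyond separate mouse numbers. Gene names came from the platform annotation, and start regions from RefSeq (GRCm38.p6).

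Of 45101 probe sets, 64 controls were removed. Signals were taken as log2(signal + 26.5), the added value being the 10th percentile, and the 22519 probe sets at or above the median mean level were fitted with limma 3.58.1 (R 4.3.3, lmFit and eBayes) and adjusted by Benjamini-Hochberg. The brightest kept probe set stood for a gene. The fit was tested on simulated data. For each list, the 4 genes with the smallest p were named, and for each member the 3 genes with the highest Pearson r. Members and lists were chosen with earlier results of these data known. Array number limits the precision. Alternatives changed the pseudocount, filter, scaling, variance prior, a muscle covariate and the mice included.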

Additional observations from a re-analysis of the deposited data

Results flagged for a closer look

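In 1 of the 28 groups of 4 mice examined (14 member probe sets in NBC and in placebo mice), a single mouse stood apart from the rest of its group by Dixon's criterion. This was placebo mouse 10 on the Ebf1 probe set 1439789_at, at 5139.2, against 4456 to 4552 in the other placebo mice. Chance alone marks about 1 group in 20.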

How the results depend on the processing

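Over 16 alternatives for each of the 14 member probe sets, 13 of 224 values changed sign and 0 passed the adjusted threshold (smallest limma adjusted p 0.519). With arrays centred on adipocyte markers, Cebpa became 0.025, Nr1h3 0.042 and Ebf1 1416302_at 0.0081, where the median of all genes was 0.12. With the muscle level as a covariate, Cebpb became -0.048 (1418901_at) and -0.0016 (1427844_a_at), Cebpd -0.24 and Ebf1 1416301_a_at -0.26. With limma's trended, robust variance prior 1 member, Pparg, had an unadjusted p under 0.05 (limma adjusted p = 0.763), and without the filter 2401 probe sets did, against 1400. Leaving out 1 mouse at a time, probe sets past the adjusted threshold numbered 0 to 18 (18 without NBC mouse 9), and those at an unadjusted p under 0.05 numbered 1037 (without placebo mouse 8) to 2548 (without NBC mouse 9). Members at an unadjusted p under 0.05 numbered 0 to 1, as did members without overlap. Those without overlap were Ebf1 1439789_at without NBC mouse 11, Rxra 1425762_a_at without NBC mouse 13, Nr1h3 without NBC mouse 5 and Pparg without placebo mouse 6. In each case the mouse left out was the one that made the groups overlap, so the separation was certain. The share of all probe sets without overlap, 3.85%, holds for the fit with every mouse. It was not computed with a mouse left out, where separation is easier. Cebpd ran from -0.038 to 0.154, Ebf1 1416301_a_at from -0.109 to 0.242 and Ebf1 1416302_at from -0.259 to 0.044. The causes were not tested. No paired analysis was possible because no mouse number occurs in both groups.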

Other observations

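The balance of Cebpb, the early C/EBP, to Cebpa, the late one, was looked at after their values were seen. With the brighter Cebpb probe set, 1418901_at, the log2 ratio of signals was -1.24 ± 0.10 in NBC and -1.47 ± 0.18 in placebo mice (SD, n = 4 each). The difference was 0.22 (two-sided exact permutation p = 0.114, with 0.0286 the lowest that these group sizes can give). The groups overlapped through placebo mouse 14 at -1.26. Signals of different probe sets are not on 1 scale, so the level of the ratio itself has no meaning. The ratio was not computed for the dimmer Cebpb probe set, 1427844_a_at, whose own log2 difference was 0.08 (SE 0.13).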
